A study of Homo sapiens with 8 samples.

Results

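The genes followed here belong to the bone morphogenetic protein (BMP) and transforming growth factor beta (TGF-beta) pathway, namely BAMBI, ID1, ID2, ID3, SMAD6, SMAD7, INHBA, BMP4, TGFB2 and TGFBR2. They were chosen by name as genes of this pathway, with earlier results of these data known, and every probe paired with one of them was read. These 10 genes, of 19160 named on the array, had 17 probes. The samples were 8 Illumina BeadChip arrays of total RNA from MDA-LM2-shTARBP2, a human breast cancer line derived from MDA-MB-231 by selection for metastasis to the lung. All 8 samples therefore carry a hairpin against TARBP2, an RNA-binding partner of Dicer. On top of it, 4 samples received a lentiviral control hairpin (shControl) and 4 a lentiviral hairpin against the zinc finger protein ZNF395 (shZNF395). Cells were selected for the hairpin and RNA was taken at 48 h. The series design calls the controls mock-transfected, whereas the sample labels call them shControl. The labels give neither the number of hairpin sequences behind the ZNF395 arrays nor whether replicates were separate cultures, so p-values measure only the spread between these samples. The comparison asks how lowering ZNF395 changes the transcriptome of this line.

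BMP and TGF-beta ligands are secreted dimers that bring type I and type II serine/threonine kinase receptors together at the cell surface. BMP receptors act mainly through SMAD1, SMAD5 and SMAD9, and TGF-beta and activin receptors mainly through SMAD2 and SMAD3, all of which join SMAD4 and enter the nucleus. The inhibitory proteins SMAD6 and SMAD7 and the decoy receptor BAMBI are themselves induced by the pathway and restrain it, while ID1, ID2 and ID3 are among its best known BMP targets. In advanced breast cancer TGF-beta is known for promoting invasion and metastasis, and ID1 and ID3 for their part in lung colonisation by cells of this lineage.

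The DNA just upstream of 3 of these genes is shown beside their values. BAMBI had the largest rise and ID3 the largest fall among the fitted probes of the 10 genes, and ID1 encodes a protein closely related to ID3. Each window holds the 250 bases before the annotated start in RefSeq on GRCh38.p14, read 5′ to 3′ on the strand of the gene, and capitals mark GGCGCC, a GC-rich SMAD motif, and GTCT or its reverse complement AGAC, the SMAD-binding element core. The windows are chr20:31605039-31605288 on the plus strand for ID1, chr1:23559502-23559751 on the minus strand for ID3 and chr10:28677271-28677520 on the plus strand for BAMBI.
ID1: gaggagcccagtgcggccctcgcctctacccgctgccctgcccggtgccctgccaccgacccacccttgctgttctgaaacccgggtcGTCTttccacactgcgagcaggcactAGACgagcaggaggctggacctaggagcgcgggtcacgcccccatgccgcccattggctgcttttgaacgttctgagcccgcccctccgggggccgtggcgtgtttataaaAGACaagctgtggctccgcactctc
ID3: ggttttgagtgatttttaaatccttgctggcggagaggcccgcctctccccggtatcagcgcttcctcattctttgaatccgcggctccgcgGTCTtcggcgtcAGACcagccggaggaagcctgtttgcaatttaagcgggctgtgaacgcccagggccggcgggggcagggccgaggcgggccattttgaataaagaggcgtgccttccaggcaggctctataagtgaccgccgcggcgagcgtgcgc
BAMBI: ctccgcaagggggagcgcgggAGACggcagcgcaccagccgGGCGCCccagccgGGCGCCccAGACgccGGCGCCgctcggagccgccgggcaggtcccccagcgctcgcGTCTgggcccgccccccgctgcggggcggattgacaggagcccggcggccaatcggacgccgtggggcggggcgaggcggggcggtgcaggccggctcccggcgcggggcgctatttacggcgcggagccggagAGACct

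The ID1 window held 0 matches to GGCGCC and 3 to GTCT or AGAC, and the ID3 window held 0 and 2. The BAMBI window held 3 and 4, and 81.2% of its bases were G or C, against 66% for ID1 and 62% for ID3. Of 35116 RefSeq windows of the same length, 16.4% held GGCGCC and 0.527% held at least 3 matches, while 77.5% held GTCT or AGAC. Among the 1153 windows with at least 80% G and C, 58.4% held GGCGCC and 5.38% held at least 3, so the matches of BAMBI are to be read beside its base composition. GGCGCC reads the same on both strands, both orientations of the shorter motif were searched, and the motifs share no letters in these windows. Over all 10 genes, 15 windows were available, of which 2 (1 of BAMBI and 1 of BMP4) held GGCGCC and 14 held GTCT or AGAC. A match of this kind describes letters in a window and is not a binding site.

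The arrays were alike in brightness, with a median raw signal between 53.2 and 57.1. Detection, at a p-value under 0.01, was reached by 16476 to 17406 of the 47323 probes, depending on the array. In each group the array numbered 3 stood apart: shControl 3 detected 16476 probes against 17265 to 17406 on the other control arrays, and shZNF395 3 detected 17191 against 16834 to 16882. Across genes, the array numbered 3 was in each group the one most correlated with the opposite group (mean r 0.973 and 0.974). Results that change without both arrays 3 are given with and without them. ZNF395 checked the labels, though its probe was paired by matching the authors' deposited fold, so the direction of its change follows from that fold. Its log2 intensity was 9.89, 9.81, 9.80 and 10.05 on shControl arrays 1 to 4 and 9.06, 8.99, 9.22 and 9.06 on the shZNF395 arrays, with no overlap. The level in shZNF395 was 57.3% of that in shControl (log2 difference -0.80, SE 0.077, limma adjusted p = 1.01e-05). TARBP2, whose hairpin all samples share, differed by 0.21 on its brightest probe (adjusted p = 0.0193), or 0.14 with background corrected without negative controls, and by 0.06 on its other (adjusted p = 0.589). The first of these calls was lost without shControl 2 (adjusted p = 0.0556) or shControl 4 (adjusted p = 0.0608).

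The labelled cell type was read against markers. VIM, CD44, CAV1 and SPARC, all abundant in MDA-MB-231, were detected on all 8 arrays, and of ESR1, PGR, CDH1 and ERBB3, which that line lacks or has little of, the first 3 were detected on none and ERBB3 on up to 5. Of 6 leukocyte markers CD14 and LAPTM5 were detected, with PTPRC, TYROBP, ITGAM and CD3D at background on all 8 arrays. The summed log2 level of this list ran from 9.45 to 9.70 in shControl and from 9.88 to 10.25 in shZNF395. CD14 rose by 1.45 (limma adjusted p = 3.85e-06), while LAPTM5 differed by 0.16 and did not pass (adjusted p = 0.292). Of 5 endothelial markers ESAM, ROBO4 and PECAM1 were detected and the defining CDH5 and VWF were not, and the sum ran from 10.20 to 10.33 and from 11.01 to 11.15. Only COL1A1 entered the sum for fibroblasts, at 8.05 to 8.28 and 8.40 to 8.46. COL1A2 was detected on at most 2 arrays and PDGFRB on 1, with DCN and THY1 undetected. Only CDH2, itself undetected on all 4 control arrays, entered that for kidney-derived packaging cells, at 4.60 to 5.03 and 5.40 to 5.65, with PAX2, WT1 and NEFM undetected. These 2 sums and 2 single genes were higher in every shZNF395 array. CDH2 entered the fit through the shZNF395 arrays alone, so its rise is no independent result. The part of these markers in the results below was not tested.

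Of the 17 probes of the 10 genes, 11 were detected on at least 4 of 8 arrays and entered the fit. Of these, 7 passed the test, 4 higher and 3 lower in shZNF395, and 4 did not. That is 63.6% of the probes fitted, beside a background in which 55.4% of all 17184 detected probes passed (25.3% higher and 30.0% lower). The groups did not overlap for 7 of the 11 probes, beside 49.0% of all detected probes. Reading each gene by its brightest detected probe, 5 of 8 genes passed, BAMBI, TGFB2 and TGFBR2 higher and ID3 and BMP4 lower, where 57.6% of 10389 named genes did. The groups of these 5 genes did not overlap, as was so for 52.4% of named genes. ID2 and INHBA had no probe in the fit. The share of these genes that changed was thus near that of the array as a whole, with rises and falls among them. BAMBI and ID3 lay outside the 0.05 and 0.95 quantiles of all detected probes (-0.64 and 0.84), in opposite directions, and the other 9 fitted probes lay inside them. Intensities of different probes are not comparable as levels, so each value is read only against the same probe on other arrays.

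**Figure D1:**
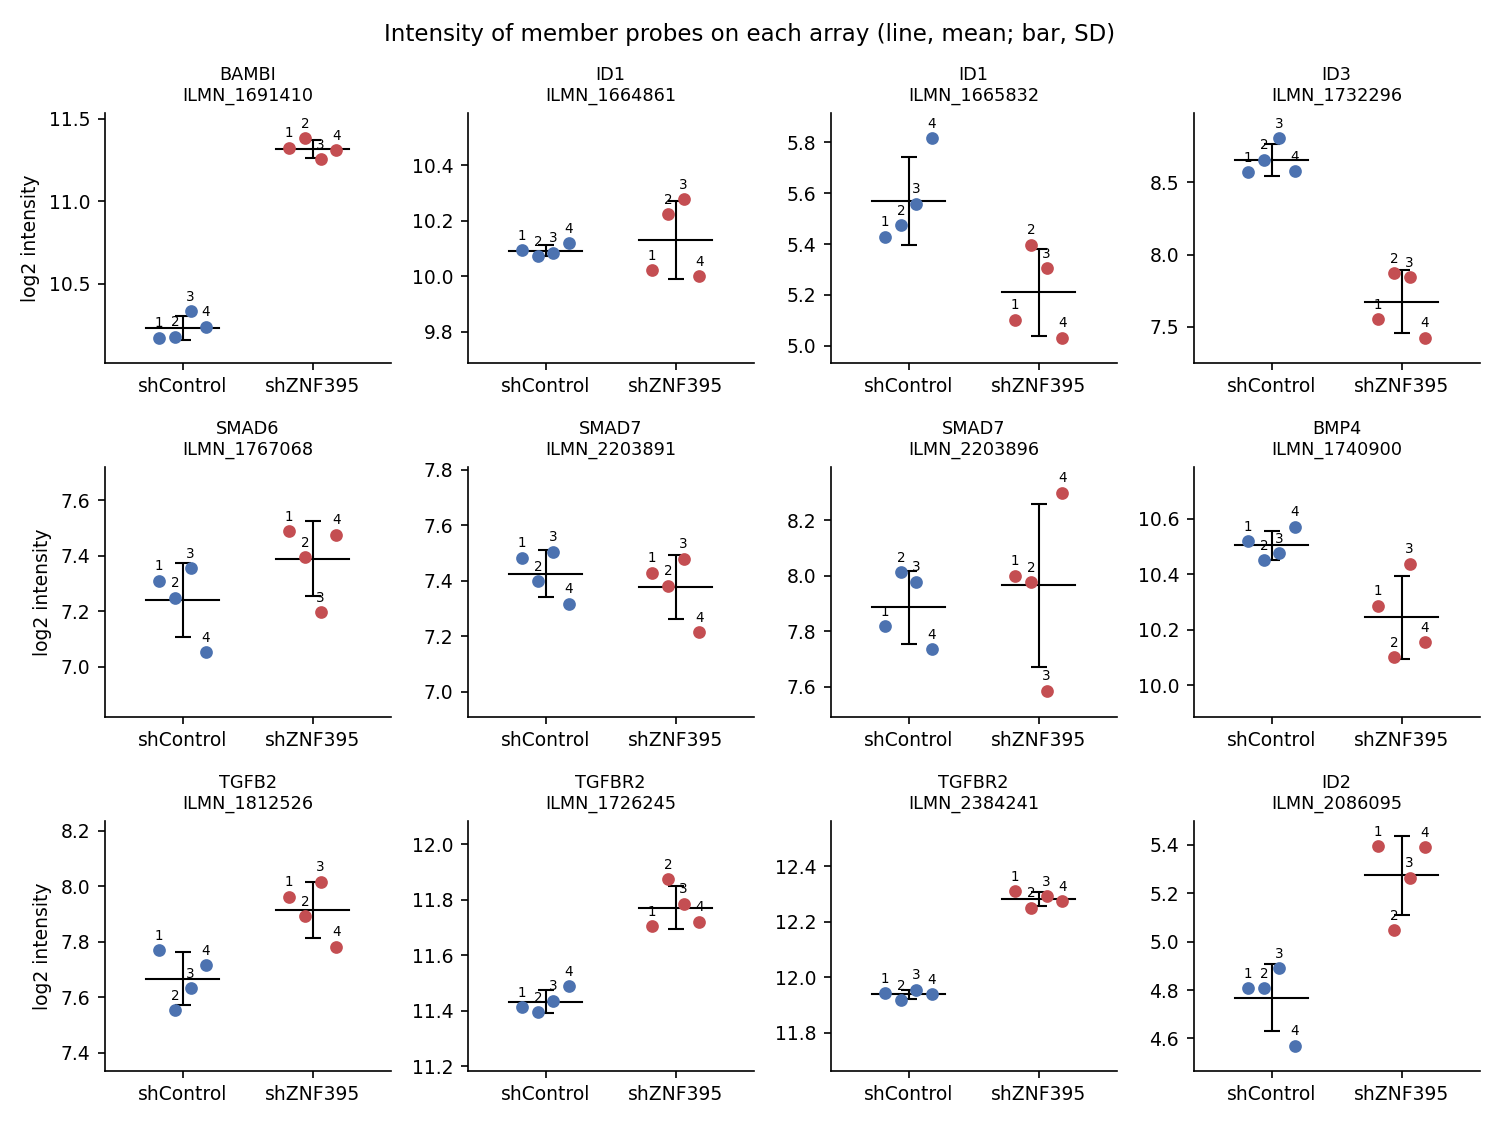
Normalised log2 intensity of the 11 fitted probes, and of the ID2 probe detected on 3 arrays, in shControl and shZNF395 (points, numbered arrays; line, mean; bar, SD, n = 4; each panel has its own axis range). The points of BAMBI and ID3 lie about 1 log2 unit apart between groups, those of both TGFBR2 probes about 0.34 apart, and those of SMAD6, SMAD7 and the brighter ID1 probe intermingle.

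Among the ligands, BMP4, a BMP that signals through BMPR1A and BMPR2, fell modestly. Its bright probe (ILMN_1740900) read 10.52, 10.45, 10.48 and 10.57 in shControl and 10.29, 10.10, 10.44 and 10.15 in shZNF395. All shZNF395 values were below all control values, with shZNF395 3 only 0.01 below the lowest control. The difference was -0.26 (SE 0.080, 95% CI -0.44 to -0.08, adjusted p = 0.0176), or 83.6% of the control level. It no longer passed without shZNF395 2 (-0.21, adjusted p = 0.0519) or without shZNF395 4 (-0.23, adjusted p = 0.0509). The other probes of BMP4 gave no reading: ILMN_1693749 was at background on all 8 arrays and ILMN_1709734 was detected on 1, shControl 4.

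TGFB2, one of the TGF-beta isoforms, rose by a similar amount. Its only probe (ILMN_1812526) read 7.77, 7.55, 7.63 and 7.72 in shControl and 7.96, 7.89, 8.02 and 7.78 in shZNF395. The groups were separate by a narrow margin, between shControl 1 and shZNF395 4. The difference was 0.25 (SE 0.074, 95% CI 0.08 to 0.41, adjusted p = 0.0158), a 1.19-fold rise. Without both arrays 3 it was 0.20 and did not pass (adjusted p = 0.0620). INHBA, which encodes the activin A subunit, was read by 1 probe (ILMN_1719547) at background on all 8 arrays, from 4.40 to 4.47 in shControl and from 4.42 to 4.54 in shZNF395, so a change in it was not detectable here.

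Of the receptors, TGFBR2, the type II receptor that binds TGF-beta ligands, rose by the same amount on both of its detected probes. The brighter (ILMN_2384241) read 11.94, 11.92, 11.96 and 11.94 in shControl and 12.31, 12.25, 12.29 and 12.27 in shZNF395, a difference of 0.34 (SE 0.054, adjusted p = 0.000315). The dimmer (ILMN_1726245) read 11.41, 11.39, 11.43 and 11.49 against 11.70, 11.87, 11.79 and 11.72, also a difference of 0.34 (SE 0.062, adjusted p = 0.000879). The arrays of each group lay close together on both probes, and the rise was 1.27-fold and 1.26-fold. Within each array the dimmer minus the brighter probe shifted by -0.01 between groups (exact two-sided permutation p = 0.914, adjusted p over 3 probe pairs 0.914). A further probe, ILMN_1744862, was at background on all 8 arrays.

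BAMBI, a transmembrane pseudoreceptor that resembles a type I receptor but lacks its kinase domain, had the largest change among the fitted probes of these genes. Its probe (ILMN_1691410) read 10.17, 10.18, 10.33 and 10.24 in shControl and 11.32, 11.38, 11.26 and 11.31 in shZNF395. The lowest shZNF395 array lay 0.92 above the highest control array. The level was 2.12-fold higher (log2 difference 1.09, SE 0.063, 95% CI 0.95 to 1.23, adjusted p = 2.56e-07). Of 17184 detected probes, 495 rose more. Without both arrays 3 the difference was 1.14.

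SMAD6 and SMAD7, the inhibitory SMADs, did not pass on any of their 3 probes. SMAD6, which acts mainly on BMP signals, read 7.31, 7.25, 7.35 and 7.05 in shControl and 7.49, 7.40, 7.20 and 7.48 in shZNF395 (ILMN_1767068). The groups overlapped through shZNF395 3, which lay below 3 of the 4 controls, and the difference was 0.15 (SE 0.089, 95% CI -0.05 to 0.34, adjusted p = 0.180). Without shZNF395 3 the difference was 0.21 and passed (adjusted p = 0.0480), and without both arrays 3 it was 0.25 (adjusted p = 0.0260), so that call rests on 1 array.

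SMAD7, which acts on TGF-beta as well as BMP receptors, read 7.82, 8.01, 7.98 and 7.73 in shControl and 8.0, 7.98, 7.58 and 8.30 in shZNF395 on its brighter probe (ILMN_2203896). These shZNF395 values spread widely (SD 0.29, against 0.13 in shControl), with array 3 the lowest of all 8 and array 4 the highest. The difference was 0.08 (SE 0.131, 95% CI -0.21 to 0.37, adjusted p = 0.634), and without both arrays 3 it was 0.24 (adjusted p = 0.0863). On its dimmer probe (ILMN_2203891) the readings were 7.48, 7.40, 7.51 and 7.32 against 7.43, 7.38, 7.48 and 7.21, a difference of -0.05 (SE 0.075, 95% CI -0.22 to 0.12, adjusted p = 0.603). SMAD6 minus SMAD7 within each array shifted by 0.07 between groups (exact two-sided permutation p = 0.571, adjusted p over 2 gene pairs 0.571).

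The ID proteins lack a DNA-binding domain and hold E proteins away from DNA. ID3 fell to 50.7% of its control level. Its probe (ILMN_1732296) read 8.57, 8.66, 8.81 and 8.58 in shControl and 7.55, 7.87, 7.85 and 7.42 in shZNF395. The highest shZNF395 array was 0.70 below the lowest control. The difference was -0.98 (SE 0.106, 95% CI -1.21 to -0.74, adjusted p = 2.36e-05), and 141 of 17184 detected probes fell more.

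ID1, a close relative of ID3, was read by a bright and a dim probe. The bright probe (ILMN_1664861) read 10.09, 10.07, 10.08 and 10.12 in shControl and 10.02, 10.22, 10.28 and 10.00 in shZNF395, a difference of 0.04 (SE 0.075, 95% CI -0.13 to 0.20, adjusted p = 0.691). The control arrays were tight (SD 0.020), and the shZNF395 arrays lay on either side of them (SD 0.14). The dim probe (ILMN_1665832) read 5.43, 5.47, 5.56 and 5.82 in shControl and 5.10, 5.40, 5.31 and 5.03 in shZNF395, and was detected on 4 and on 2 arrays. It fell by 0.36 (SE 0.105, adjusted p = 0.0137), close to background, and by 0.17 when background was corrected without negative controls. The dim minus the bright probe shifted by -0.40 within arrays (exact two-sided permutation p = 0.0286, the smallest that 4 against 4 arrays allow; adjusted p over 3 probe pairs 0.0857). On all 3 probes of ID1 and ID3, arrays 2 and 3 of shZNF395 read above arrays 1 and 4.

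ID1 and ID3 were also compared within each array. Bright-probe ID1 minus ID3 was 1.52, 1.41, 1.28 and 1.54 in shControl and 2.47, 2.35, 2.43 and 2.57 in shZNF395. The groups were fully separate, with SDs of 0.12 and 0.092, and the shift of 1.02 had the smallest exact two-sided permutation p that this design allows, 0.0286. Adjusted over the 2 gene pairs it was 0.0571. Of 4 gene pairs planned, those with ID2 could not be made. ID2 was at background on all 8 arrays with ILMN_1793990. Its other probe (ILMN_2086095) read 4.81, 4.81, 4.89 and 4.57 in shControl, all undetected, and 5.40, 5.05, 5.26 and 5.39 in shZNF395, detected on 3 arrays. Because shZNF395 2 was itself undetected, no bound on the difference is given, and the probe did not enter the fit.

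**Figure D2:**
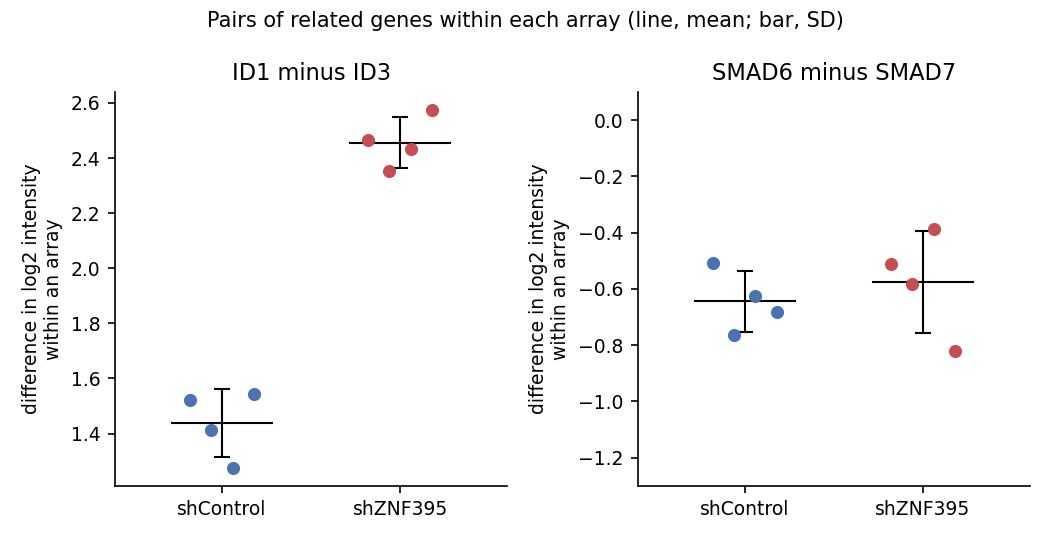
Difference in log2 intensity between probes of the same array, for ID1 minus ID3 and SMAD6 minus SMAD7, in shControl and shZNF395 (4 arrays each). ID1 minus ID3 moves from 1.28 to 1.54 in shControl up to 2.35 to 2.57 in shZNF395, while the SMAD6 minus SMAD7 points of the groups overlap.

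**Figure D3:**
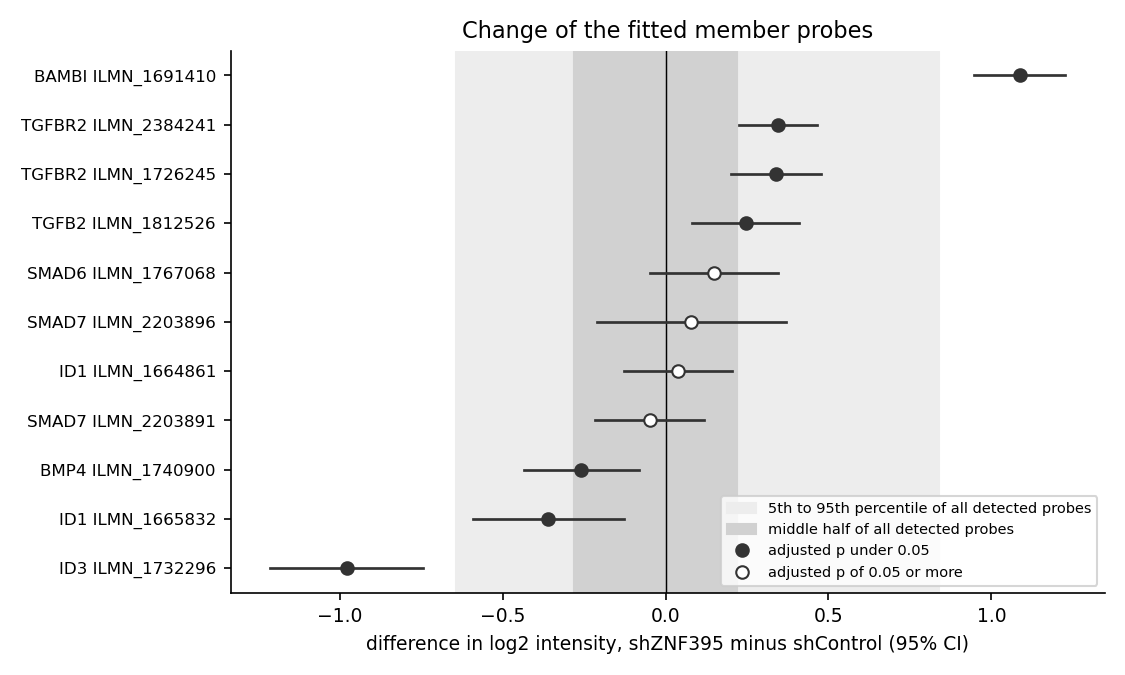
Difference in log2 intensity (shZNF395 minus shControl) with its 95% confidence interval for each fitted probe of the 10 genes, with shading for the quartiles and the 0.05 to 0.95 quantiles of all detected probes and filled points for adjusted p under 0.05. BAMBI at 1.09 and ID3 at -0.98 lie at opposite ends, and both TGFBR2 probes sit at 0.34.

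The authors' deposited table of fold changes has a scale close to log2 at high signal and compressed at low signal. Probes were paired with genes by matching these same folds. That BAMBI and ID3 lie at the ends here too was therefore built in and is no independent result. In the authors' deposited table BAMBI had 1.05 and ID3 had -0.72, with ZNF395 at -0.71. TGFB2 had 0.17, SMAD6 had 0.09 and INHBA had 0.02 in the authors' deposited table. Some entries of the authors' deposited table average several probes, undetected ones among them: TGFBR2 had 0.22 over 3 probes, 1 of them undetected, and ID2 had 0.08 over 2. For ID1 the authors' deposited table gave -0.04 as the mean of 2 probes, and for SMAD7 it gave 0.01 over 2. BMP4 had 2 entries in the authors' deposited table, -0.16 as the mean of its bright probe and an undetected one, and -0.05 from the remaining dim probe.

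The rest of the pathway was read from 8 lists by role, which include the members. Of 90 pathway genes, 64 had a probe in the fit, and 19 were higher, 22 lower and 23 did not pass, a share of 64.1% against 57.6% of all named genes (29.8% higher and 27.8% lower). Their median difference was 0.02, beside -0.01 over all named genes. The lists share LTBP2, PMEPA1 and SKIL, each present on 2. Ordered by role the counts ran in different directions, as follows. Each count is to be read beside these shares of all named genes, and no list was tested as a set.

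Of 16 ligand genes 9 were fitted, with 4 higher, 2 lower and a median difference of 0.25. GDF15, a stress-induced distant member of the family, rose by 1.97 (adjusted p = 6.10e-07), or by 1.48 with background corrected without negative controls. TGFB3 rose from 5.66 to 5.93 in shControl to 6.88 to 7.02 in shZNF395 (1.09, SE 0.074, adjusted p = 7.84e-07), and by 0.69 with background corrected without negative controls. BMP2, the closest relative of BMP4, rose by 0.55 (SE 0.106, adjusted p = 0.00128) where BMP4 fell. INHBB, another activin subunit, fell by 0.27.

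Receptors and co-receptors were mostly higher, 8 of the 11 fitted of 14, with 1 lower and a median of 0.34. Of all named genes 29.8% were higher and 27.8% lower. TGFBR1, the type I partner of TGFBR2, was undetected on all 4 control arrays and detected on all 4 shZNF395 arrays. With the main background correction the bound on its rise was 0.41 (1.33-fold). With background corrected without negative controls its log2 difference was 0.32, below that bound, so the bound holds for the main setting only. TGFBR1 entered the fit through the shZNF395 arrays alone, so its place among the 8 is no independent result. ENG, a TGF-beta co-receptor, rose by 0.48 and ACVR2A, an activin type II receptor, by 0.39, though a second probe of ACVR2A gave 0.12 (adjusted p = 0.294). The gene that fell was BMPR1A, a BMP type I receptor, from 8.76 to 8.93 in shControl to 7.88 to 8.21 in shZNF395 (-0.85, SE 0.083, adjusted p = 1.06e-05). ENG is also abundant in endothelial cells, whose markers ESAM (0.86) and ROBO4 (0.49) were higher here with CDH5 and VWF undetected. In bulk RNA more cells of a type and more RNA per cell cannot be told apart.

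Extracellular antagonists and latency proteins were fitted for 9 of 14 genes, 2 higher and 5 lower (median -0.24). LTBP3, a latent TGF-beta binding protein, rose by 1.48, or by 1.00 with background corrected without negative controls. FSTL3, which binds activins, rose by 0.87, while LTBP2 fell by 0.55 and FSTL1 fell by 0.32. The widest falls on this list were of the BMP antagonist NOG (-0.98, SE 0.281, adjusted p = 0.0121, and -0.64 with background corrected without negative controls) and of THBS1, an activator of latent TGF-beta (-1.11, SE 0.210, adjusted p = 0.0011). These last 2 genes were picked out after their values were seen.

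All 4 fitted signal-transducing SMADs of 6 passed, where 57.6% of all named genes did. SMAD3 rose by 0.44, and SMAD5 (-0.37, and -0.54 on its other probe), SMAD2 (-0.29, or -0.15 with background corrected without negative controls) and SMAD4 (-0.16, adjusted p = 0.0448) were lower. The SMAD4 call was lost without both arrays 3 (-0.12, adjusted p = 0.116) and in 7 of the 8 fits that left out 1 array (adjusted p up to 0.0885), in which the difference ran from -0.18 to -0.12. Of 16 inhibitory SMADs and intracellular regulators 15 were fitted, with 2 higher, 6 lower and 7 not passed (median -0.13). PMEPA1, a TGF-beta-induced inhibitor of receptor SMADs, fell by 1.09 on each of its 2 probes. TGIF1 and TGIF2, related corepressors, went opposite ways, at 0.65 and -0.69. FKBP1A, which binds type I receptors, rose by 0.65 on its brightest probe and by 0.45 and 0.44 on 2 others, with 0.08 on the remaining probe.

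Target genes and the partners of the ID proteins completed the lists. Of 10 ID and other BMP target genes 5 were fitted and ID3 alone passed, with a median of 0.04 on the list. Without shZNF395 3, or without both arrays 3, 2 passed, ID3 and the homeobox gene MSX2, which had a difference of 0.18 over all arrays (adjusted p = 0.298) and is named after its values were seen. Of 14 TGF-beta target genes 12 were fitted, 2 higher and 5 lower (median 0.01). TAGLN, a smooth muscle actin-binding protein, fell by 1.84 on both probes, and JUNB, an AP-1 subunit, rose by 0.90, or by 0.48 with background corrected without negative controls. Of the E proteins that ID proteins bind, TCF3 fell by 0.46 and TCF12 fell by 0.28, while a second TCF12 probe gave -0.18 (adjusted p = 0.119) and TCF4 was not detected well enough to enter the fit.

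**Figure D4:**
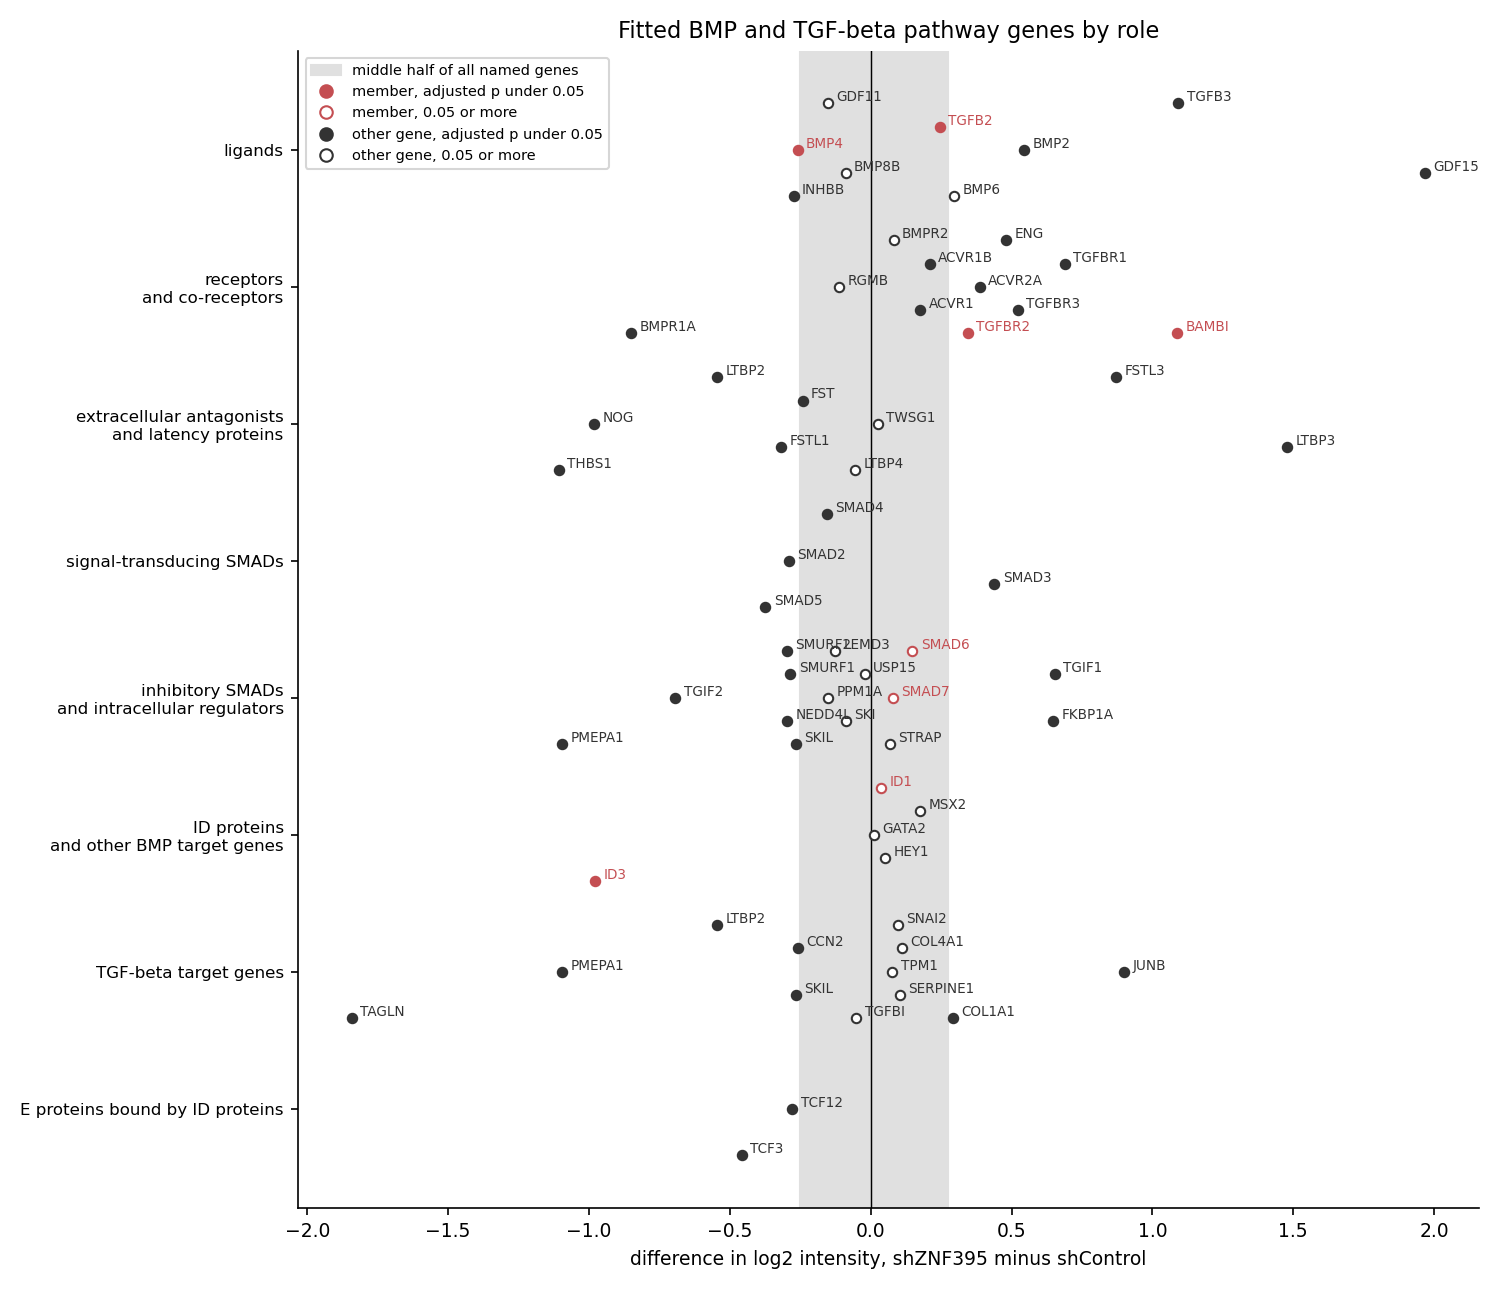
Difference in log2 intensity (shZNF395 minus shControl) of every fitted pathway gene, in rows by role, with filled points for adjusted p under 0.05, the 10 chosen genes in red, and the range between the lower and upper quartiles of all named genes shaded. Receptors lie mostly to the right, with BMPR1A at -0.85 on the left, and ID3 at -0.98 is the only filled point among the ID and BMP target genes.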

How the data were processed

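Per the file headers, each of 8 arrays has an intensity and a detection p-value for 47323 probes in the non-normalized table that the authors deposited. The deposited series matrix holds the authors' normalized intensities, for which the submitters' processing notes name lumi, and the authors' deposited table holds 1 log-like fold per transcript entry, close to log2 at high signal. No deposited file pairs probes with genes. The pairing was recovered from values: group differences of transformed series matrix intensities matched 33131 of 39747 deposited folds to 1 probe within 1e-09 (0.0126% after a shift), and means of neighbouring probes matched 6129 of the 6610 entries that no single probe matched. Names came from RefSeq (GRCh38.p14), used for names and for the promoter windows only.

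Raw intensities were background-corrected in limma 3.58.1 (R 4.3.3) with neqc (normexp, negative controls inferred from detection p-values, offset 16), quantile normalized and put on log2. Probes with detection p under 0.01 on at least 4 arrays were kept, 17184 in all. Differences, shZNF395 minus shControl, were tested two-sided with lmFit and eBayes and adjusted by Benjamini-Hochberg over all kept probes and a threshold of 0.05. Intervals are 95%. The number of arrays limits the precision. A probe undetected on every array of a group has at most a bound. Within-array differences were tested by exact permutation. The fit was tested on simulated data. Genes named are the members, ZNF395, TARBP2, up to 4 called non-members with the smallest p per pathway list, and markers detected on all 4 arrays of a group. A withheld marker is not reported here. The members and lists were chosen with earlier results of these data known. Alternatives covered background correction, normalization, the authors' matrix values, filters, threshold, moderation, array weights, a replicate block and left-out arrays. Python 3.11.15 with scipy 1.17.1 was used.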

Additional observations from a re-analysis of the deposited data

Results flagged for a closer look

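Among 112 groups of 4 values checked, 6 had 1 array far from the other 3, where chance gives about 1 group in 20. Of these, 2 were counts of detected probes, 16476 on shControl 3 (others 17265 to 17406) and 17191 on shZNF395 3 (others 16834 to 16882). The other 4 were log2 intensities of pathway genes. BMPR1A, a BMP type I receptor, read 8.76 on shControl 3 and 8.92 to 8.93 on the other control arrays. PMEPA1, the TGF-beta-induced inhibitor, read 9.81 on shZNF395 3 and 9.96 to 9.97 on the others. FSTL3, the activin-binding protein, read 9.24 on shZNF395 2 and 9.08 to 9.10 on the others. TGIF2, the corepressor, read 8.75 on shControl 4 and 8.86 to 8.88 on the others. None of the 10 chosen genes was among them.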

How the results depend on the processing

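Of 17184 probes, 9512 were called, and the other settings gave 7176 to 10430, with 8597 to 9678 when 1 array was left out. The calls of BAMBI (1.04 to 1.14 under other settings), ID3 (-1.01 to -0.83) and both TGFBR2 probes held in all of these. SMAD6 (0.15, not passed) passed with array weights (0.21, adjusted p = 0.0398) and without both arrays numbered 3 (0.25, adjusted p = 0.0260), a setting chosen after seeing the data. TGFB2 missed the threshold in that setting (0.20, adjusted p = 0.0620). At adjusted p under 0.01, 4 member probes were called in place of 7, and the dim ID1 probe (-0.36), BMP4 (-0.26) and TGFB2 (0.25) did not pass. Leaving out 1 array gave SMAD6 0.085 to 0.21 and BMP4 -0.32 to -0.21, and the list of ID and BMP target genes 1 to 2 calls, with 2 without both arrays 3. No direction of a called value reversed. Arrays with the same number did not deviate in the same direction (correlations -0.42, for the arrays numbered 3, to 0.01). Of 8 arrays, 0 correlated best with its own number. With 4 arrays in a group these correlations cannot exclude pairing, and the main fit did not pair samples. The replicate block gave 8540 calls and changed no call of a member. Slide as a block was not run, because the column names give no slide. With 1 array left out the exact test cannot go below 0.0571. Signal near background limits the dim ID1 probe, ID2 and INHBA.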
